A study of Mus musculus with 4 samples.

Results

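Nuclear pore and nuclear transport receptor genes were examined for Deaf1 occupancy in C2C12, a long-established mouse myoblast line that models muscle precursor cells. Members were all protein-coding genes of the RefSeq annotation of GRCm38.p6 whose symbol is Nup, Xpo, Ipo or Tnpo followed by a digit, or begins with Kpna or Kpnb. The rule found 43 genes among 21887 on chromosomes 1 to 19, X and Y, namely 21 pore genes and 22 receptor genes. The other 21844 genes served as the comparison. The series is a ChIP-seq map of the transcription factor Deaf1 and is titled for its role in autophagy and muscle regeneration. It comprised 2 libraries made with an anti-Deaf1 antibody and 2 input libraries without antibody, all from C2C12 cultures in DMEM with 10% FBS, with no treatment or genetic change named. The protocols speak of formaldehyde fixation and, in the same field, of native ChIP, and this conflict could not be settled. The cells are 1 line, nothing says whether the replicates were separate cultures, and no RNA was measured, so the cell type could not be checked against marker genes and binding could not be related to expression.

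Every molecule that moves between nucleus and cytoplasm passes through the nuclear pore complex, a ring-shaped assembly of nucleoporins set in the nuclear envelope. Outer and inner rings of scaffold nucleoporins hold a central channel lined with disordered repeats, with filaments on the cytoplasmic face and a basket on the nuclear face. Importins and exportins of the karyopherin beta family carry cargo through that channel under the control of the GTPase Ran, and importin alpha proteins serve as adaptors for classical nuclear localisation signals. Deaf1 binds DNA through its SAND domain, whose recognition core is the tetranucleotide TTCG.

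A gene was counted as bound when a region came no more than 1 kb from the first or the last base of its annotated span. The authors' combined list of regions found in both ChIP libraries held 1550 regions, and the lists of the single libraries held 1860 peaks (replicate 1) and 3126 peaks (replicate 2). The deposited fold enrichment of a peak is the ChIP signal over the local background at the summit. From it and the deposited p, the number of fragments stacked at the summit (pileup) and the expected background were recovered for 100% of peaks in both lists. The median pileup over all peaks was 22 fragments in replicate 1 and 23 in replicate 2, and the lowest background was 1.80 and 2.09 fragments.

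In the combined list 8 of the 43 members (18.6%) were bound, where 6.99% of all protein-coding genes were. These were 5 of 21 pore genes (23.8%), Nup107, Nup133, Nup153, Nup155 and Nup214, and 3 of 22 receptor genes (13.6%), Ipo4, Ipo11 and Tnpo3. Among the 21844 other genes 1521 (6.96%) were bound. In the peaks of replicate 1 the numbers were 5 pore genes and 4 receptor genes (18.2%), beside 7.53% of all protein-coding genes. In the peaks of replicate 2 they were 7 pore genes (33.3%) and 4 receptor genes, beside 11.2% of all protein-coding genes. The order of pore genes, receptors and other genes was the same in the 3 lists, although the receptor shares rest on 3 or 4 genes. The combined list holds regions found in both libraries, so the 3 lists are not independent. At an IDR score of at least 540, which stands for an IDR of at most 0.05, 4 pore genes and 1 receptor gene were left, beside 3.13% of all protein-coding genes. Among genes whose promoter held at least 10 CpG, 5 of 16 pore genes (31.2%) and 3 of 16 receptor genes (18.8%) were bound, beside 11.7% of all such protein-coding genes. Members were chosen by name, and no test was run on these shares.

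**Figure D1:**
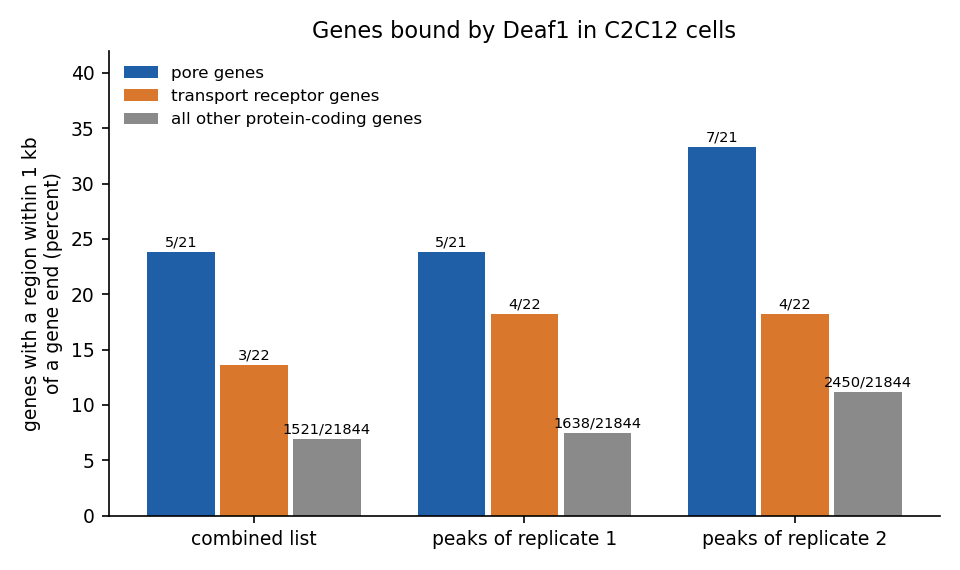
Percent of pore genes, transport receptor genes and all other protein-coding genes with a region no more than 1 kb from a gene end, in the combined list and in the peaks of each replicate; figures on the bars are bound genes over genes in the class. Pore genes were at 23.8% in the combined list, receptors at 13.6% and other genes at 6.96%, and in the peaks of replicate 2 they were at 33.3%, 18.2% and 11.2%.

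The DNA under the bound regions is shown first, because the members differed in whether it held the known Deaf1 core. The sequences come from the RefSeq promoter table of GRCm38.p6 and run 5′ to 3′ on the strand of the gene. The table holds 250 bases before and 50 bases after each annotated start. The 5 longer runs are the part of the bound region that lies outside the gene span and in that table, for those of the 3 most enriched pore genes and receptors covering a start that have such bases. The 30-base runs surround the replicate 2 summit, and those of Nup107, Nup155 and Ipo4 were chosen after the values were seen. They are the only 3 of the 8 bound members whose 30-base window held CGGAAG. The longer runs of Nup155, Nup214 and Ipo11 stop at the gene span and leave out the replicate 2 summit. The Tnpo3 run holds no TTCG, but the Tnpo3 region held 2 copies, in bases inside the gene span that are not shown. Capitals mark TTCG or its complement CGAA, TGACGTCA (its own complement), and CGGAAG or its complement CTTCCG.
Nup133, chr8:123949266-123949459, minus strand: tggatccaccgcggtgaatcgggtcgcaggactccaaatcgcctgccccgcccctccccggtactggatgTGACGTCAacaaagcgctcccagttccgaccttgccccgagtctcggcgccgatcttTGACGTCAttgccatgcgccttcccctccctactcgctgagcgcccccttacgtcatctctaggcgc
Nup214, chr2:31974286-31974407, plus strand: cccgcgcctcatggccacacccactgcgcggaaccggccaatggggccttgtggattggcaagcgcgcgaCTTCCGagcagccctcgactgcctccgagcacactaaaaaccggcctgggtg
Nup155, chr15:8109205-8109262, plus strand: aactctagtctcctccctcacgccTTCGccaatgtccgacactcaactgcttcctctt
Nup155, summit, chr15:8109298-8109327, plus strand: ggaCGAAcCGGAAGtgcgtcatgacctggc
Nup107, summit, chr10:117792687-117792716, minus strand: gCTTCCGggtCGAAgggtgtgCTTCCGgag
Tnpo3, chr6:29609859-29609987, minus strand: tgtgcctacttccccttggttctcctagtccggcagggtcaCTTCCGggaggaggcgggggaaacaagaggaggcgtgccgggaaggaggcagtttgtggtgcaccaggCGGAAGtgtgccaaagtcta
Ipo11, chr13:106936959-106937052, minus strand: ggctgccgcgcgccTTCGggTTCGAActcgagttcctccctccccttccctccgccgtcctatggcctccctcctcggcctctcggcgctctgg
Ipo4, summit, chr14:55635676-55635705, minus strand: acgccctttccgcCGGAAGttgctgtcgga

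The strongest member regions were at pore scaffold and filament genes. Nup133 encodes a subunit of the outer ring, also called the Y complex. Its region (chromosome 8, 123949217 to 123949459) had 58 fragments at the summit in replicate 1 (95% exact Poisson interval 44.0 to 75) and 73 in replicate 2 (57.2 to 91.8). The backgrounds were 2.0 and 3.87 fragments, and the fold enrichments 19.7 and 15.2, a mean of 17.4 ± 3.16 (SD, n = 2). By mean fold it stood 70th among the 1550 regions, and the irreproducible discovery rate (IDR) that the authors' score stands for was 0.00943. The IDR is the estimated share of irreproducible regions among those scored at least as high, and not the chance for a single region.

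Nup107 encodes another Y-complex subunit, and its region on chromosome 10 (117792632 to 117792921) had a higher background in replicate 2. Its pileup was 33 fragments in replicate 1 (22.7 to 46.3) and 36 in replicate 2 (25.2 to 49.8). The background was 2.64 fragments in replicate 1 and 5.80 in replicate 2, so that similar pileups gave fold enrichments of 9.35 and 5.44, a mean of 7.40 ± 2.77 (SD, n = 2). The IDR was 0.196, the highest of the 5 pore regions. The other Y-complex members by the rule, Nup37, Nup43, Nup85 and Nup160, had no peak in either library. This makes 2 of 6 bound (33.3%), beside 6.99% of all protein-coding genes.

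Nup214, on the cytoplasmic side, contributes a docking site for the exportin Xpo1. Its region (chromosome 2, 31974286 to 31974576) had 46 fragments in replicate 1 (33.7 to 61.4) and 61 in replicate 2 (46.7 to 78.4). Fold enrichment was 16.8 and 15.9, a mean of 16.3 ± 0.623 (SD, n = 2); the IDR was 0.00897. This was the lowest IDR among the members and the smallest difference between replicates in fold enrichment. In pileup the smallest difference was at Nup107, with 33 and 36 fragments. An end of Aif1l also lay no more than 1 kb from the region. The other gene of the cytoplasmic side, Nup88, had no peak.

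Nup153, a nucleoporin of the nuclear basket, had a region on chromosome 13 (46727950 to 46728126). The pileup was 35 fragments in replicate 1 (24.4 to 48.7) and 43 in replicate 2 (31.1 to 57.9). Fold enrichment was 9.90 and 12.9, a mean of 11.4 ± 2.11 (SD, n = 2); the IDR was 0.012. Nup50, the other basket gene in the rule, had no peak.

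Nup155 belongs to the inner ring that anchors the scaffold. Its region (chromosome 15, 8109205 to 8109391) had 46 fragments in replicate 1 (33.7 to 61.4) and 54 in replicate 2 (40.6 to 70.5). Fold enrichment was 11.4 and 9.43, a mean of 10.4 ± 1.41 (SD, n = 2); the IDR was 0.0127. Of the remaining inner ring genes, Nup35 had a peak in replicate 2 only, and Nup93, Nup188 and Nup205 had none.

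Of the 3 receptor regions the strongest was at Tnpo3, above Nup107 and below the other 4 pore regions by mean fold. Tnpo3 imports serine- and arginine-rich splicing factors. Its region (chromosome 6, 29609795 to 29609987) had 26 fragments in replicate 1 (17 to 38.1) and 41 in replicate 2 (29.4 to 55.6), with fold enrichments of 7.43 and 10.8, a mean of 9.10 ± 2.36 (SD, n = 2); the IDR was 0.0259. It was the only receptor region with an IDR of at most 0.05. Replicate 2 had 2 peaks no more than 1 kb from an end of Tnpo3, and 1 of them overlapped this region.

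Ipo11, an importer of ubiquitin-conjugating enzymes, had a region on chromosome 13 (106936866 to 106937052). Its pileup was 17 fragments in replicate 1 (9.90 to 27.2) and 24 in replicate 2 (15.4 to 35.7), with fold enrichments of 6.42 and 8.09, a mean of 7.26 ± 1.18 (SD, n = 2); the IDR was 0.137. Ipo4 carries histones and ribosomal proteins into the nucleus. Its region (chromosome 14, 55635622 to 55635749) had 15 fragments (8.40 to 24.7) and 26 fragments (17 to 38.1), with fold enrichments of 5.71 and 7.70, a mean of 6.71 ± 1.41 (SD, n = 2); the IDR was 0.26. An end of Tm9sf1 lay no more than 1 kb away.

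Pileups were higher in replicate 2 at all 8 regions, but the counting intervals of the replicates overlapped at each of them. The other gene-end regions also had the higher median fold in replicate 2, 8.42 beside 7.50. The share of those regions with a higher pileup in replicate 2 was not counted. In replicate 1 the 5 pore regions (9.35 to 19.7-fold) did not overlap the 3 receptor regions (5.71 to 7.43-fold). Both ranges lay within that of the 1241 other gene-end regions, 2.94 to 42.7-fold. In replicate 2 the pore and receptor regions overlapped, at 5.44 to 15.9-fold and 7.70 to 10.8-fold. There Nup107 lay below all 3 receptors and Nup155, at 9.43-fold, below Tnpo3.

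**Figure D2:**
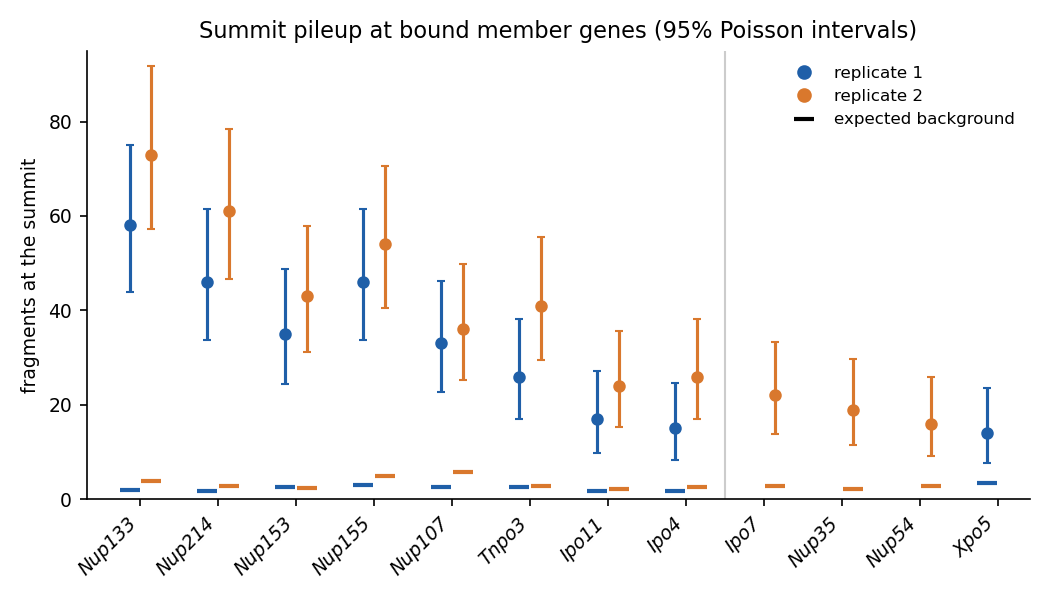
Fragments stacked at the peak summit for the 8 members of the combined list (left of the line, pore genes then receptors, each by falling mean fold enrichment) and for the 4 members with a peak in 1 library only (right); bars are 95% exact Poisson intervals and dashes the expected background. Nup133 reached 58 and 73 fragments, the 4 members on the right 14 to 22, and the background in replicate 2 was highest at Nup107, at 5.80 fragments.

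Beside the 1241 other regions at gene ends, the 8 member regions had a median fold enrichment of 9.63 in replicate 1, where the other regions had 7.50 (interquartile range 5.98 to 9.97), and of 10.1 in replicate 2, where the others had 8.42 (6.48 to 11.3). The medians of the 5 pore regions were 11.4 and 12.9, above both upper quartiles. Those of the 3 receptor regions were 6.42 and 8.09, below both medians. Median width was 190 bp in members and in the others. An IDR of at most 0.05 was reached by 4 of 5 pore regions and 1 of 3 receptor regions, and by 522 of the 1241 others (42.1%). Regions in reach of ends of more than 1 gene made up 2 of 8 (25%) among members, beside 341 of 1241 among the others (27.5%).

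**Figure D3:**
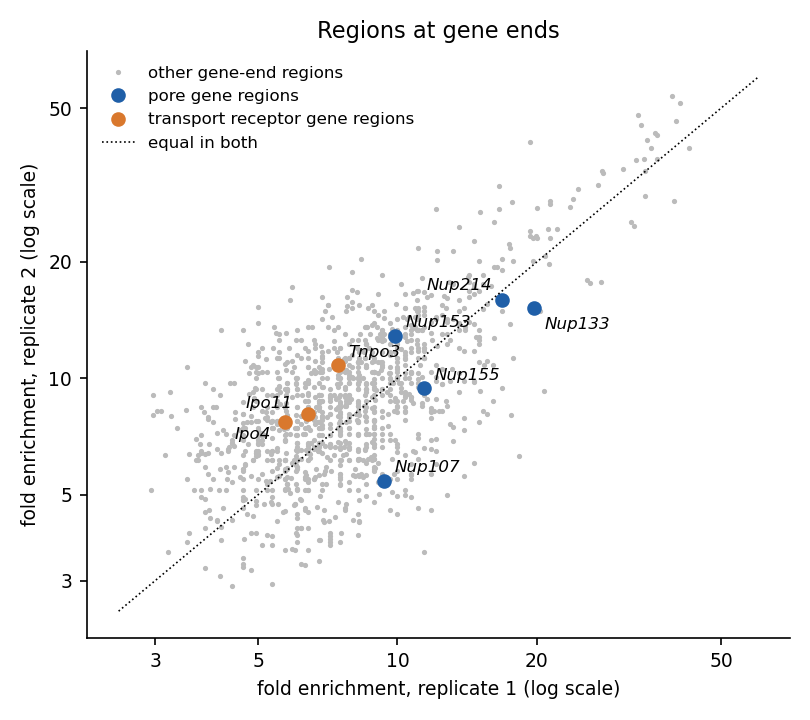
Fold enrichment in replicate 1 and replicate 2 (both axes logarithmic) of regions at gene ends, with the 5 pore and 3 receptor regions coloured and the dotted line marking equal values. Nup133 and Nup214 lie in the upper range at 15.2 to 19.7-fold, the receptors lie within the bulk, and Nup107 lies lowest in replicate 2 at 5.44-fold.

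All 8 members were bound at their annotated starts and none only at the far end, which is near the background: of 1231 other bound genes with a start in the promoter table, 1153 (93.7%) had a region at a start and 3.9% only at the far end. The region covered the start itself at 7 of the 8 (87.5%), and at 72.1% of those other genes. At Nup153 the region ended 101 bp upstream of the start, with summits 176 and 190 bp upstream. At the other 7 genes the summits lay 0 to 69 bp from the start in both replicates. The table gives no exons, so whether a region runs into a first exon or an intron was not analysed here.

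**Figure D4:**
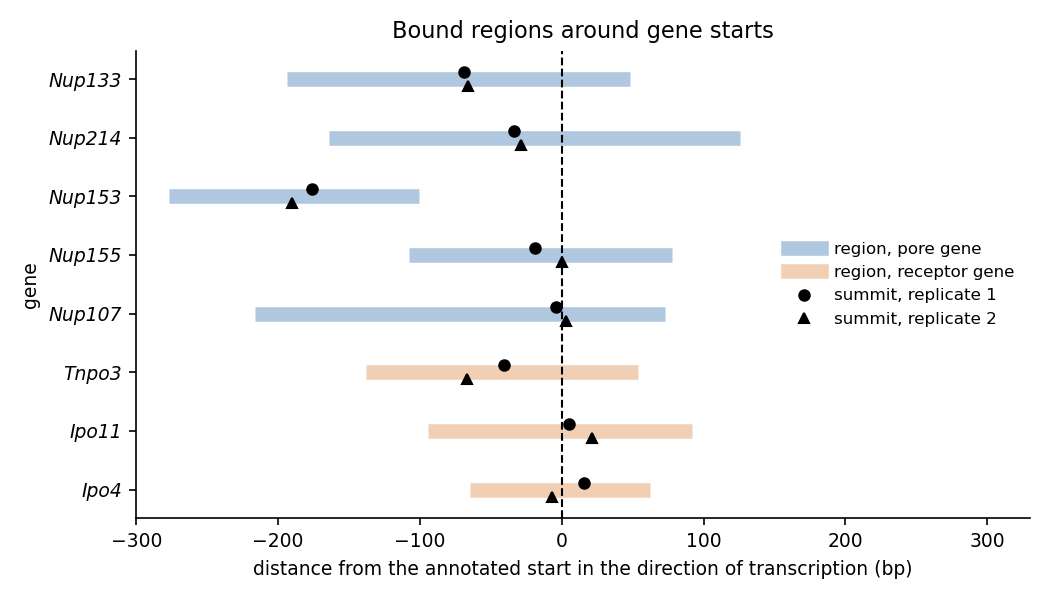
Regions of the combined list (bars) at the 8 bound members, on a scale of distance from the annotated start in the direction of transcription, with the summit of each replicate. Summits lay within 69 bp of the start at all genes but Nup153, whose summits were 176 and 190 bp upstream.

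The known core did not follow the strength of binding among the members. On both strands, the promoters of Nup133, Nup214 and Nup153, which had the 3 largest mean fold enrichments, held no TTCG in 300 bases. The part of the region inside the promoter table was 100% for Nup133, 73.5% for Nup214 and 84.7% for Nup153. TTCG stood close to the summit at 2 pore genes: its centre was 2.5 bp from the replicate 2 summit at Nup107 and 10.5 bp at Nup155, whose promoters held 2 and 4 copies. At Ipo11, with 4 copies, 2 of them in the run TTCGAA where TTCG and CGAA overlap, the nearest copy was 91.5 bp from that summit. It was 92.5 bp away at Tnpo3, which held 2 copies, and 196 bp at Ipo4, which held 1.

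Over members as a group, TTCG occurred in the promoters of 5 of 8 bound genes (62.5%) and of 16 of the 23 genes without a peak that the table covers (69.6%). It occurred in 49% of all 17492 protein-coding promoters, in 70.1% of those of other bound genes and in 47.3% of those of other unbound genes. The mean was 1.32 copies over the 34 members in the table and 0.791 over all genes. The tetramers TCGT and CGTT, with the same bases and also a CpG, averaged 0.853 and 1.5 copies in members against 0.610 and 0.777 in all genes. Member promoters held a median of 27.5 CpG, and all promoters 13. The part of CpG content in these counts was not tested.

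Other letters were searched only after the sequences above were seen. TGACGTCA, the palindrome that CREB and ATF factors are known to bind, occurred at Nup133 (2 copies) and Nup214 (1 copy, inside the gene span) and in no other of the 34 members in the table. It occurred in 2.33% of all promoters, and 2 or more copies in 0.0686%. The promoters of 60 of 1231 other bound genes (4.87%) held it, and those of 2.13% of other unbound genes. CGGAAG, which holds the GGAA core of ETS factors and can share 2 bases with TTCG, occurred in 5 of 8 bound members (62.5%), at Nup107 in 4 copies, Tnpo3 in 3, Ipo4 in 2, and Nup155 and Nup214 in 1 each. It occurred in 4 of 23 members without a peak (17.4%) and in 21.5% of all promoters. Among the other bound genes it occurred in 857 of 1231 (69.6%), so the share in bound members was near that of bound genes in general. These matches are descriptions of the sequence and not evidence of a bound site.

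Another 4 members had a peak in 1 library only. In replicate 2 these were Nup35 of the inner ring with 19 fragments (11.4 to 29.7) and a fold of 6.48, Nup54 of the central channel with 16 fragments (9.15 to 26.0) and 4.36, and Ipo7, an importer of ribosomal proteins, with 22 fragments (13.8 to 33.3) and 5.90. In replicate 1 it was Xpo5, the exporter of microRNA precursors, with 14 fragments (7.65 to 23.5) and a fold of 3.32. Its −log10 q was 1.60, and it stood 1834th of 1860 peaks by fold. It lay at an end of Polh as well. All 4 peaks had their summits 29 to 119 bp from an annotated start or, for Nup35, whose strand is not in the promoter table, from the lower end of its span. Their pileups lay at or below the median of their library. A gene without a peak can carry signal below the threshold of the peak caller, so these 4 do not show a difference between the libraries.

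Ipo8, whose product imports argonaute proteins, was not counted by the rule and also had a peak at a start. In replicate 1 a peak on chromosome 6 (148831468 to 148831574, 17 fragments, 9.90 to 27.2, fold 6.42) had its summit 36 bp from the start in the promoter table. That start is inside the gene span, and the summit was 1428 bp from the nearer end of the span. The gene nearest to the 1 kb limit from outside was Nup210l, with a combined region 1472 bp from its end. From inside it was Ipo4, with 119 bp, so no bound member lay near the limit.

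The remaining members had no peak at an end in either library. Among receptors this took in all 6 importin alpha genes (Kpna1, Kpna2, Kpna3, Kpna4, Kpna6 and Kpna7), their partner Kpnb1, and 4 of 5 exportins, namely Xpo1, the main exporter of proteins with leucine-rich export signals, Xpo4, Xpo6 and Xpo7. The 3 bound receptors thus all came from the 11 beta-type importers (27.3%), beside 6.99% of all protein-coding genes. At an IDR score of at least 540 only Tnpo3 was left. Also without a peak were Ipo5, Ipo9, Ipo13, Tnpo1 and Tnpo2. Among pore genes these were the channel gene Nup62, the membrane ring gene Nup210, Nup98, which works on both faces of the pore, and the related Nup62cl and Nup210l. A background of 6.99% corresponds to less than 1 bound gene in a group of 5 or 6. A count of 0 in the combined list thus says little about exportins or importin alpha genes.

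Pore and transport genes outside the naming rule were taken from a list of 26, fixed with earlier results of these data known. All 26 were found in the annotation. In the combined list 8 of them (30.8%) were bound, beside 6.99% of all protein-coding genes: Sec13 of the Y complex, the basket protein Tpr, Aaas, the mRNA export factor Gle1, Ranbp2 of the cytoplasmic filaments, Ranbp1, the Ran importer Nutf2, and Nxt1, the partner of the mRNA exporter Nxf1. Their fold enrichments ran from 3.24 at Tpr to 15 at Gle1 in replicate 1 and from 4.69 at Ranbp1 to 20.1 at Gle1 in replicate 2. The IDR was 0.511 at Tpr and Ranbp1, 0.269 at Ranbp2 and 0.197 at Nxt1. At an IDR score of at least 540 the count fell to 2 of 26 (7.69%), Aaas and Gle1, beside 3.13% of all protein-coding genes. At Tpr, Ranbp1 and Nutf2 a region was also in reach of another gene. Peaks in replicate 2 only were found at Rae1, Nupl1, Xpot and Nxf1, with folds of 3.49 to 7.18. Ran itself, Rcc1 and Rangap1, which set the Ran gradient, had none. Seh1l, Ahctf1, Ndc1, Pom121, Nupl2, Cse1l, Ranbp17, Ranbp6, Ranbp3, Nxt2 and Snupn had none either.

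Genes of the nuclear envelope were near the background of 6.99% in the combined list. Of 13 such genes, 1 had a region (7.69%), Banf1, a DNA-bridging protein of the envelope, with fold enrichments of 9.08 and 11.0 and an end of Eif1ad in reach. At an IDR score of at least 540 Banf1 was still counted, 1 of 13 (7.69%), beside 3.13% of all protein-coding genes. The list of 26 pore and transport genes had the same share, 7.69%, at that score. Lmnb1, which encodes a lamin, had a peak of 4.11-fold in replicate 2 only. Lmna, Lmnb2, Lbr, Emd, Tmpo, Sun1, Sun2, Syne1, Syne2, Lemd2 and Lemd3 had none.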

How the data were processed

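Per the submitters' processing notes, BWA 0.7.17-r1198, MACS2 2.1.2 and the build mm10 were used; filters are not given in the sources used here. Each ChIP library has a deposited peak list with the authors' fold enrichment (a ratio) and −log10 p and q of each peak. The deposited combined list holds 1 IDR score per region for the pair, and its 6 columns of single-library values were not used. Strength was taken from the strongest overlapping peak of each library. Pileup P and background L were recovered from fold = (P + 1)/(L + 1), with P a whole number. The P taken was that for which the deposited p is the Poisson probability of exceeding P. Both this and the window rule were run on simulated data made by the same rules, which checks the code only. Intervals are exact Poisson at the 95% level and cover counting error only. Gene spans and promoters are RefSeq GRCm38.p6; 34 of 43 members have a promoter in the table, and the outermost start was used for letter counts. No table of input values was analysed here.

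The members, the lists and the search for TTCG were chosen with earlier results of these data known. The naming rule was every member with a region or peak at an end, values for those with a region in both libraries, and sequences for up to 3 pore genes and 3 receptors. No test was run. Alternatives covered each library alone, the IDR score, window width, gene starts only, the whole span, the summit, q, and the nearest gene. Computations used Python 3.11.15, pandas 2.3.3, numpy 2.4.6 and scipy 1.17.1.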

Additional observations from a re-analysis of the deposited data

How the results depend on the processing

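The number of bound pore genes stayed between 4 and 7 under every alternative run. The receptor number stayed at 3 or 4 except at an IDR score of at least 540, where only Tnpo3 was left, 1 of 22 genes (4.55%), while 4 of 21 pore genes (19%) and 3.11% of other genes were bound, against 3.13% of all protein-coding genes. With either library left out, pore genes numbered 5 to 7, receptors 4 in both cases, and the share of other genes ran from 7.50% to 11.2%. Among genes whose promoter holds at least 10 CpG, an alternative chosen after seeing the data, 5 of 16 pore genes (31.2%), 3 of 16 receptors (18.8%) and 11.7% of other genes were bound. The median fold of the member regions ran from 9.63 to 10.1 with 1 library left out. In place of TTCG, TCGT averaged 0.853 and CGTT 1.5 copies in member promoters. Each of the 8 member regions held 1 peak per library, so taking the peak nearest to the gene end in place of the strongest changes nothing and tests nothing. No paired analysis was possible because no input values were analysed here and the ChIP libraries form 1 group. Weak regions of 15 to 26 fragments have wide counting intervals.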

Other observations

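The letters at the summits were compared with those of the other bound genes after the sequences had been seen, and are given as a description. A window of 30 bases at the replicate 2 summit lay inside the promoter table for all 8 bound members and for 921 other bound genes. CGGAAG stood in 3 of the 8 member windows (Ipo4, Nup107 and Nup155) and in 365 of the others (39.6%), and CGGAGA, a rearrangement of the same bases, in 0 and in 2.28%. TTCG stood in 2 member windows and in 11.4% of the others, where TCGT stood in 9.45% and CGTT in 13.2%. Among promoters with at least 10 CpG, 25.5% of the 3284 other genes with CGGAAG were bound and 4.89% of the 6692 without it. With and without TTCG the shares were 13.0% and 9.20%, and with and without CGGAGA 12.9% and 11.3%. Of the members with such promoters, 5 of 11 with CGGAAG and 3 of 21 without it were bound. Regions were selected as bound before these counts, genes are not independent of each other, and whether any protein holds these sites was not tested.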
